A study of Rattus norvegicus with 12 samples.

Results

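The CDK inhibitor genes encode small proteins that block the cyclin-dependent kinases (CDKs), the enzymes that carry a cell through its division cycle. The 7 genes were taken by name: Cdkn1a, Cdkn1b and Cdkn1c of the Cip/Kip family, and Cdkn2a, Cdkn2b, Cdkn2c and Cdkn2d of the INK4 family. Of these, 6 had a row among the 17315 genes of the count tables, and all 6 passed the filter on low counts that left 11321 genes to test. Cdkn2d was not analysed here. They were measured by sequencing of polyadenylated RNA in 12 libraries of Sprague-Dawley rat cultures that the labels call Müller cells, a glial type that spans the retina.

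SIRMu-1 (5 libraries; passages 6, 11, 11, 11 and 20 in replicates 1 to 5) is a line that arose by spontaneous immortalization of cells of rats aged 2 to 4 days. The rMC-1 line (3 libraries; passages 23, 26 and 26) came from adult rats and is known to carry the SV40 large T antigen, a viral protein that binds Rb among other cell proteins. Primary MC cultures (4 libraries; passages 4, 4, 3 and 3) also came from rats aged 2 to 4 days. All had 25 mM glucose and 2 mM glutamine, with 20% fetal bovine serum for SIRMu-1 and Primary MC and 10% for rMC-1. SIRMu-1 replicates 3 and 5 and all Primary MC cultures were kept in gentamicin at 87 mg/L with amphotericin B at 2.2 mg/L, and rMC-1 was kept without either. Line, passage, serum, drugs and donor age therefore differ together between some groups, and their parts cannot be told apart. Each line is a single line, so its libraries are repeat cultures, and the labels do not say which Primary MC cultures came from the same animals. The spread behind each p-value is therefore that of these cultures, and it may in part be technical.

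Cip/Kip inhibitors act mainly on CDK2 with cyclins E and A. INK4 inhibitors bind CDK4 and CDK6 and keep the D cyclins away from them. Active CDKs phosphorylate Rb, which releases E2F factors that turn on the genes of DNA replication. In the retina Müller glia normally rest outside the cycle, and p27, the product of Cdkn1b, is known in mice to hold them there.

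Libraries had 26349346 to 36730443 reads in genes in SIRMu-1, 27351014 to 38125630 in rMC-1 and 22582345 to 29812705 in Primary MC. Levels are CPM, the reads of a gene scaled to a common library size with TMM factors. These levels are not divided by transcript length, so they compare a gene between libraries and not 1 gene with another. Of the Müller markers, Aqp4 had no count in SIRMu-1 or rMC-1 and 2 counts in Primary MC. Kcnj10 had 0, 9 and 13 counts in SIRMu-1, rMC-1 and Primary MC, and Rlbp1 had 22, 109 and 6. Sox9 was at 21.99 to 107 CPM in SIRMu-1 and 37.2 to 83.8 CPM in Primary MC and had 4 counts over the 3 rMC-1 libraries. Glul was at 39.7 to 87.7 CPM in SIRMu-1, 51.96 to 60.1 CPM in rMC-1 and 67.7 to 228 CPM in Primary MC, and Slc1a3 at 17.9 to 27.8 CPM, 43.4 to 71.7 CPM and 14.8 to 53.2 CPM in SIRMu-1, rMC-1 and Primary MC. Vim, which many cultured cells express, was at 1305 CPM or more in every library. The summed level of 10 fibroblast and matrix genes was 73040 to 98980 CPM in SIRMu-1, 4744 to 6657 CPM in rMC-1 and 73410 to 195700 CPM in Primary MC. The part of cell makeup in the results was not tested, and in bulk RNA fewer cells of a type and less RNA per cell cannot be told apart.

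The promoters of 4 members are shown, because Cdkn1b and Cdkn2c are the members that were higher in both lines and Cdkn2a and Cdkn2b lie side by side in the genome. Each runs 250 bases before to 30 bases after the start that RefSeq gives on rat assembly GRCr8, 5′ to 3′, with motif matches in capitals. The count files were made on rn6, and no coordinate was carried between the builds. The windows are chr4:169491254-169491533 (plus strand), chr5:129644862-129645141 (minus strand), chr5:109107927-109108206 (minus strand) and chr5:109134826-109135105 (minus strand).
Cdkn1b: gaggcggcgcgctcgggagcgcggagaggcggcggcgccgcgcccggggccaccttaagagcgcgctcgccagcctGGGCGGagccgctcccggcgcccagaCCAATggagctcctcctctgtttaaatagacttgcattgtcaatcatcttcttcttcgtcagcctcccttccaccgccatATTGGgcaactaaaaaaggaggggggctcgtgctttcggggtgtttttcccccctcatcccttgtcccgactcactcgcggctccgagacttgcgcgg
Cdkn2c: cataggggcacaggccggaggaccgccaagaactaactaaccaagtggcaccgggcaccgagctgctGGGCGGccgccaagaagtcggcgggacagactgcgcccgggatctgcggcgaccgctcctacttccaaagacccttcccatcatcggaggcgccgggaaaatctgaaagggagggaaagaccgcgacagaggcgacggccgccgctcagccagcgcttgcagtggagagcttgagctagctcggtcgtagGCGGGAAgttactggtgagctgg
Cdkn2a: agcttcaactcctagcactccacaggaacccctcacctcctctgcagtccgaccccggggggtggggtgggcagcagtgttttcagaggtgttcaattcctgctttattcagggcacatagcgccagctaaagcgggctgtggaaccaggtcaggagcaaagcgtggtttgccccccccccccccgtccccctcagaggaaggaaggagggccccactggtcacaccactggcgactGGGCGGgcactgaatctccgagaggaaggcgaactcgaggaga
Cdkn2b: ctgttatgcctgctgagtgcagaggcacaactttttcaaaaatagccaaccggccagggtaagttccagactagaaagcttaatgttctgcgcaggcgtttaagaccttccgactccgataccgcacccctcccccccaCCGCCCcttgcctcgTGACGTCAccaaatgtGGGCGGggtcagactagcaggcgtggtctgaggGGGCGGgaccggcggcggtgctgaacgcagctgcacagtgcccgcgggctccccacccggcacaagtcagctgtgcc
Motifs were searched on both strands. An E2F word was TTCCCGC or any of its close relatives in the E2F consensus, of which the first was TTCGCGC. The other relatives were the version TTGCCGC and the last of the set, which reads TTGGCGC. Searches for GC boxes used the letters GGGCGG, those for the cAMP response element its full palindrome TGACGTCA and those for the CCAAT box the letters of its name. Of the 4 promoters, Cdkn2c had an E2F word, 8 bases into the transcript, and 8.79% of 33469 rat promoters of the same window hold one. The Cdkn1b window held 2 CCAAT boxes (36.2% of promoters have at least 1) and a GC box (32.2%). Cdkn2b had 3 GC boxes and a cAMP response element, which 1.78% of promoters hold. The Cdkn2a window had 1 GC box. Its RefSeq start lies inside the annotated gene, and Cdkn2a is known to use separate promoters for its p16 and ARF transcripts, so the window stands for 1 of them. A match describes letters and is not a measured binding site. Cdkn1a had no match in its window, and Cdkn1c had no entry.

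Among the 6 members, Cdkn1b and Cdkn2c were higher and Cdkn1a and Cdkn2b lower in both lines than in Primary MC. In SIRMu-1, 2 members were higher, 3 were lower and 1 was not called, by edgeR's quasi-likelihood test with Benjamini-Hochberg adjustment over all genes at an adjusted p under 0.05, where 46.1% of all genes tested were called (21.7% higher and 24.4% lower). In rMC-1 the counts were also 2 higher, 3 lower and 1 not called, where 70.8% of genes were called (31.9% higher and 38.9% lower). Between SIRMu-1 and rMC-1, 1 member was higher in SIRMu-1, 3 were lower and 2 were not called, with 63.2% of genes called (32.7% higher and 30.5% lower in SIRMu-1). The groups did not overlap in CPM for 4 of the 6 members in each comparison, against 35.3% of genes for SIRMu-1 against Primary MC, 70.9% for rMC-1 against Primary MC and 63.0% for SIRMu-1 against rMC-1. A call was thus common among all genes. The separation of SIRMu-1 from Primary MC in Cdkn2a was narrow and depends on the TMM scaling. The median log2 fold change of the members was -1.32 against -0.02 over all genes for SIRMu-1 against Primary MC, -0.66 against -0.15 for rMC-1 against Primary MC, and -0.45 against 0.03 for SIRMu-1 against rMC-1. Both comparisons with Primary MC share the same 4 Primary MC libraries.

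**Figure D1:**
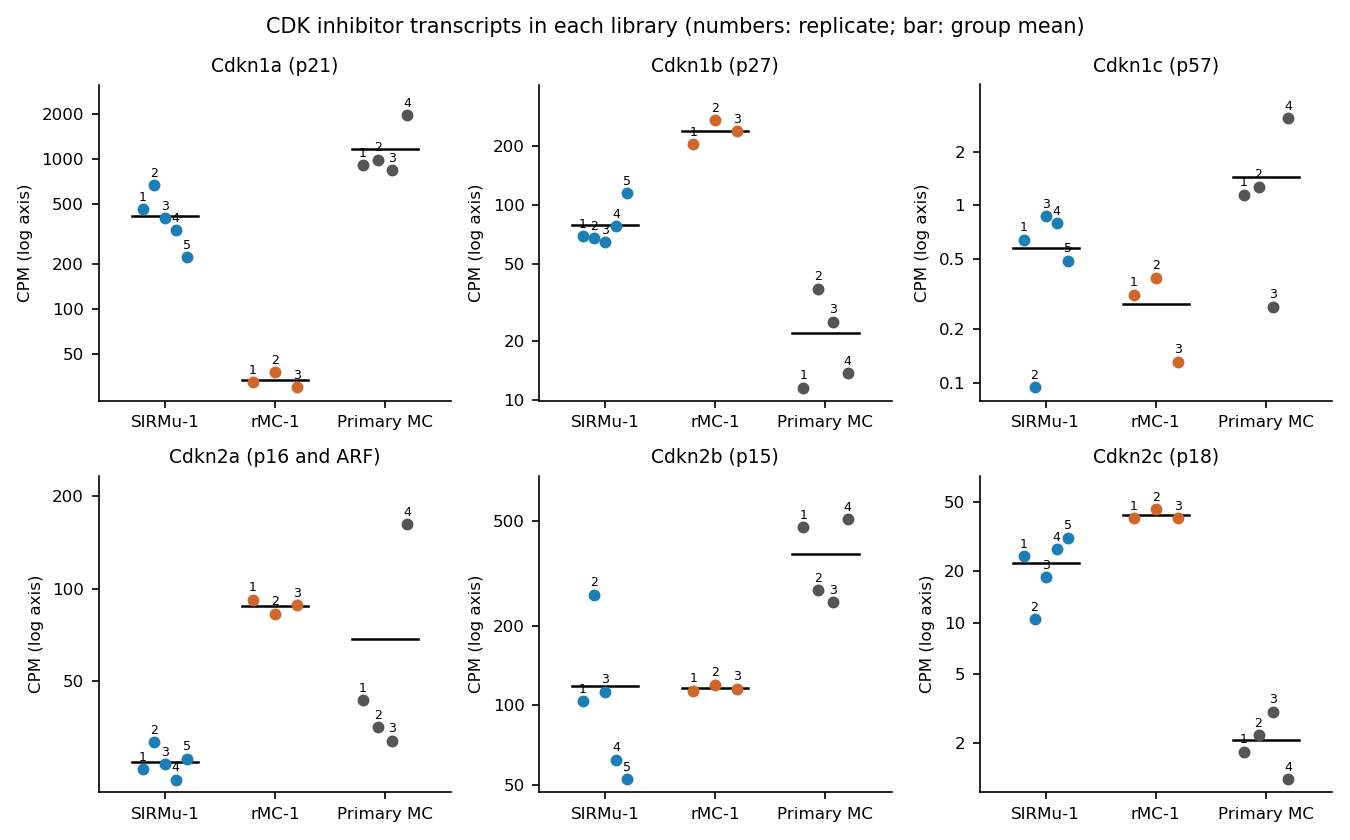
Level of each measured CDK inhibitor gene in each library, in CPM on a log axis; points are libraries numbered by replicate, and bars are group means (SIRMu-1 n = 5, rMC-1 n = 3, Primary MC n = 4). Cdkn1a lies lowest in rMC-1, at 30.1 to 38.0 CPM, and Cdkn2c lowest in Primary MC, at 1.23 to 3.04 CPM.

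Cdkn1a encodes p21, the Cip/Kip inhibitor that is induced after DNA damage. It stood at 463, 670, 406, 337 and 222 CPM in SIRMu-1 replicates 1 to 5, at 32.6, 38.0 and 30.1 CPM in rMC-1, and at 910, 991, 845 and 1963 CPM in Primary MC. The 3 groups did not overlap, with rMC-1 lowest, SIRMu-1 between and Primary MC highest. SIRMu-1 averaged 419 ± 166 CPM (SD, n = 5) and Primary MC 1177 ± 527 CPM (SD, n = 4), which is 2.81-fold lower in SIRMu-1 (log2 fold change -1.49 ± 0.32, SE, edgeR adjusted p = 0.00269). In rMC-1 the mean was 33.6 ± 4.03 CPM (SD, n = 3), 35.1-fold lower than in Primary MC (-5.13 ± 0.45, edgeR adjusted p = 1.70e-06). SIRMu-1 was 12.5-fold above rMC-1 (3.64 ± 0.41, edgeR adjusted p = 1.60e-05). The lowest rMC-1 library still gave 1143 Cdkn1a reads, so the low level was well counted. Without Primary MC replicate 4, the highest library, the log2 fold changes were -1.13 for SIRMu-1 and -4.77 for rMC-1.

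Cdkn1b encodes p27, the Cip/Kip inhibitor best known for holding resting cells out of the cycle. Its levels ran the other way. They were 69.0, 67.7, 64.4, 78.1 and 115 CPM in SIRMu-1, 205, 272 and 239 CPM in rMC-1, and 11.6, 37.3, 25.2 and 13.8 CPM in Primary MC. Again no groups overlapped, and rMC-1 was highest and Primary MC lowest. The means were 78.9 ± 20.9 CPM in SIRMu-1 (SD, n = 5) and 21.96 ± 11.8 CPM in Primary MC (SD, n = 4), 3.59-fold higher in SIRMu-1 (log2 fold change 1.84 ± 0.33, edgeR adjusted p = 0.000872). The rMC-1 mean of 239 ± 33.8 CPM (SD, n = 3) was 10.9-fold above Primary MC (3.44 ± 0.37, edgeR adjusted p = 7.48e-06). SIRMu-1 was 3.03-fold lower than rMC-1 (-1.60 ± 0.33, edgeR adjusted p = 0.0012). By fold change from Primary MC, Cdkn1b stood at percentile 97.1 of all tested genes in SIRMu-1 and 97.0 in rMC-1.

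The balance of reads between these Cip/Kip genes therefore differed widely between groups. Reads of Cdkn1a per read of Cdkn1b were 6.71, 9.90, 6.31, 4.31 and 1.92 in SIRMu-1 replicates 1 to 5. In rMC-1 the ratio was 0.159, 0.140 and 0.126, and in Primary MC it was 78.5, 26.6, 33.5 and 143. The 3 ranges did not overlap. The ratio is of reads without length correction, so its changes between libraries can be read but not its absolute size.

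Cdkn1c encodes p57, a Cip/Kip inhibitor whose gene is imprinted. It was nearly absent in all groups, with 18, 3, 21, 24 and 13 reads in SIRMu-1, 11, 19 and 5 reads in rMC-1, and 29, 34, 6 and 70 reads in Primary MC. These reads correspond to 0.576 ± 0.306 CPM in SIRMu-1 (SD, n = 5), 0.279 ± 0.133 CPM in rMC-1 (SD, n = 3) and 1.44 ± 1.18 CPM in Primary MC (SD, n = 4), and all 3 groups overlapped. The rMC-1 difference from Primary MC passed (log2 fold change -2.34 ± 0.82, edgeR adjusted p = 0.0228). It no longer passed without Primary MC replicate 4 (-1.67, edgeR adjusted p = 0.0678), without rMC-1 replicate 1 (0.0624) or 3 (0.0965), with tables of the same code added together (-2.46, edgeR adjusted p = 0.0801), or with scaling by library totals (0.0572), and over the 12 libraries left out in turn the adjusted p was 0.0062 to 0.0965. SIRMu-1 did not pass against Primary MC (-1.32 ± 0.67, edgeR adjusted p = 0.125), although it did without Primary MC replicate 3 (-1.67, edgeR adjusted p = 0.0397). Nor did SIRMu-1 pass against rMC-1 (1.02, 95% interval -0.67 to 2.71, edgeR adjusted p = 0.270).

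Of the INK4 genes, Cdkn2c showed the widest separation of the lines from Primary MC. It encodes p18, an inhibitor of CDK4 and CDK6. Its level was 24.3, 10.5, 18.4, 26.7 and 31.1 CPM in SIRMu-1, 40.4, 45.6 and 40.5 CPM in rMC-1, and 1.78, 2.21, 3.04 and 1.23 CPM in Primary MC. The Primary MC levels rest on 28 to 68 reads a library. Every SIRMu-1 and rMC-1 library lay above every Primary MC library, and every rMC-1 library above every SIRMu-1 library. SIRMu-1 averaged 22.2 ± 8.0 CPM (SD, n = 5) and Primary MC 2.06 ± 0.763 CPM (SD, n = 4), 10.7-fold higher in SIRMu-1 (log2 fold change 3.42 ± 0.34, edgeR adjusted p = 2.52e-05). The rMC-1 mean of 42.2 ± 2.99 CPM (SD, n = 3) was 20.4-fold above Primary MC (4.35 ± 0.37, edgeR adjusted p = 1.35e-06). Among the tested genes, 86 rose more than Cdkn2c in SIRMu-1 and 224 in rMC-1. SIRMu-1 lay 1.90-fold below rMC-1 (-0.93 ± 0.31, edgeR adjusted p = 0.0211). That call was lost when SIRMu-1 cultures with drugs alone were used (-0.77, edgeR adjusted p = 0.148).

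Cdkn2b encodes p15, an INK4 inhibitor that TGF-beta induces in epithelial cells. It had 104, 263, 113, 62.3 and 52.5 CPM in SIRMu-1, 114, 120 and 116 CPM in rMC-1, and 472, 273, 246 and 508 CPM in Primary MC. All rMC-1 libraries were below all Primary MC libraries, while SIRMu-1 replicate 2 reached into the Primary MC range and the other SIRMu-1 libraries did not. Means were 119 ± 84.5 CPM in SIRMu-1 (SD, n = 5), 117 ± 3.01 CPM in rMC-1 (SD, n = 3) and 375 ± 134 CPM in Primary MC (SD, n = 4). Against Primary MC the log2 fold change was -1.66 ± 0.42 in SIRMu-1 (edgeR adjusted p = 0.00725) and -1.69 ± 0.50 in rMC-1 (edgeR adjusted p = 0.00976). The difference between SIRMu-1 and rMC-1 was 0.03, with a 95% interval of -0.97 to 1.02 (edgeR adjusted p = 0.967). That interval does not show equal levels, and without SIRMu-1 replicate 2 the difference was -0.49 (edgeR adjusted p = 0.194).

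Cdkn2a encodes p16 of the INK4 family and, from another reading frame, ARF, which binds MDM2. The counts are per gene and join both products. The level was 26.0, 31.7, 26.9, 23.96 and 28.1 CPM in SIRMu-1, 92.2, 83.1 and 88.5 CPM in rMC-1, and 43.5, 35.4, 32.1 and 163 CPM in Primary MC. SIRMu-1 was lowest without overlap with either group, while rMC-1 lay above 3 Primary MC libraries and below replicate 4. The gap of SIRMu-1 to Primary MC was small (31.7 CPM in SIRMu-1 replicate 2, 32.1 CPM in Primary MC replicate 3). It depends on the TMM scaling, and without that the ranges overlap. SIRMu-1 replicate 5 had 749 Cdkn2a reads of 26631070 in genes, and Primary MC replicate 3 had 718 of 26651294. SIRMu-1 averaged 27.3 ± 2.88 CPM (SD, n = 5) and Primary MC 68.4 ± 63.0 CPM (SD, n = 4), 2.503-fold lower in SIRMu-1 (-1.32 ± 0.41, edgeR adjusted p = 0.0205). Without Primary MC replicate 4 that change was -0.44 (edgeR adjusted p = 0.0142). In rMC-1 the mean was 87.9 ± 4.62 CPM (SD, n = 3) and the difference from Primary MC did not pass (0.36, 95% interval -0.65 to 1.38, edgeR adjusted p = 0.497). Without Primary MC replicate 4 it was 1.24 (edgeR adjusted p = 1.86e-05), so 1 library decided this call. With each of the 12 libraries left out in turn, the adjusted p ran over 0.00824 to 0.0460 in SIRMu-1 and 1.86e-05 to 0.813 in rMC-1. SIRMu-1 was 3.22-fold below rMC-1 (-1.69 ± 0.44, edgeR adjusted p = 0.00534). When count tables that share a code in their names were added together, SIRMu-1 did not pass against Primary MC (edgeR adjusted p = 0.159) or rMC-1 (0.0982), and with the SIRMu-1 cultures split by drugs it did not pass against Primary MC (0.109 with drugs, 0.0600 without).

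**Figure D2:**
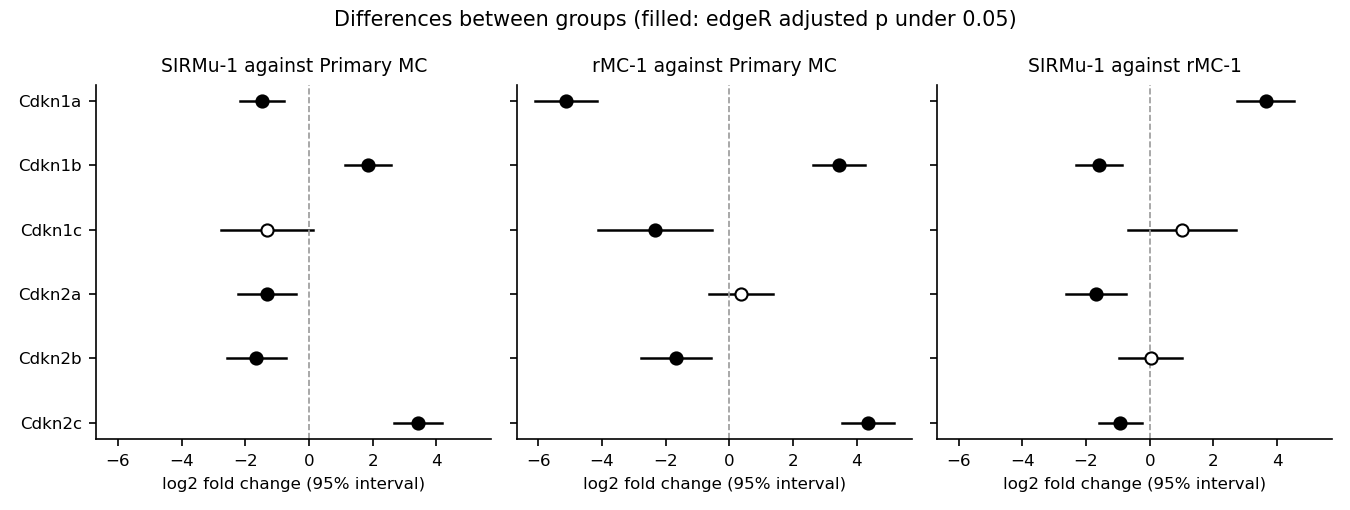
Log2 fold change of each member in the 3 comparisons, with 95% intervals; filled points have an edgeR adjusted p under 0.05. Cdkn1b and Cdkn2c lie right of 0 in both comparisons with Primary MC and left of 0 for SIRMu-1 against rMC-1, and Cdkn1a does the reverse.

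Because Cdkn2a and Cdkn2b share a locus, the reads of each were also set against each other and against Mtap, the metabolic enzyme gene next to them. Cdkn2b reads per Cdkn2a read were 4.00, 8.28, 4.20, 2.599 and 1.87 in SIRMu-1, 1.23, 1.44 and 1.31 in rMC-1, and 10.9, 7.71, 7.66 and 3.13 in Primary MC. The rMC-1 libraries were lowest without overlap, and SIRMu-1 overlapped with Primary MC. Mtap itself averaged 43.4 ± 4.63 CPM in SIRMu-1 (SD, n = 5), 52.8 ± 3.75 CPM in rMC-1 (SD, n = 3) and 53.8 ± 13.0 CPM in Primary MC (SD, n = 4). Reads of Cdkn2a per read of Mtap were 0.565 to 0.721 in SIRMu-1, 1.58 to 1.72 in rMC-1 and 0.550 to 2.35 in Primary MC. On this measure SIRMu-1 lay inside the Primary MC range, unlike Cdkn2a CPM. Reads of Cdkn2b per read of Mtap were 1.35 to 5.13 in SIRMu-1, 2.07 to 2.46 in rMC-1 and 4.21 to 9.65 in Primary MC, and SIRMu-1 again overlapped with Primary MC. Mtap did not pass in SIRMu-1 (-0.31 ± 0.15, edgeR adjusted p = 0.112) or rMC-1 (-0.03 ± 0.17, edgeR adjusted p = 0.892). The locus is often deleted in cell lines. Here Cdkn2a had at least 651 reads and Cdkn2b at least 1400 in every SIRMu-1 library, and the number of copies of the locus was not tested. Of the farther genes, Klhl9, a ubiquitin ligase adaptor, fell in rMC-1 (-0.60 ± 0.16, edgeR adjusted p = 0.00481) and did not pass in SIRMu-1 (0.24 ± 0.14, edgeR adjusted p = 0.166). Elavl2, an RNA-binding protein gene of neurons, passed in neither line, and Dmrta1 had 2, 2 and 11 reads over all SIRMu-1, rMC-1 and Primary MC libraries.

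Cdkn1c lies in an imprinted cluster, and 8 listed neighbours were tested. Slc22a18, a transporter gene expressed mainly from the maternal copy, had 5 reads over the SIRMu-1 libraries, 4 over rMC-1 and 624 over Primary MC, and was called lower in both lines (edgeR adjusted p = 4.94e-05 in SIRMu-1 and 4.25e-05 in rMC-1). Phlda2, another maternally expressed growth regulator, had 8 reads in SIRMu-1, 1 in rMC-1 and 88 in Primary MC, and was also called lower in both lines. The neighbour Nap1l4, a histone chaperone gene, went the other way, at 147 ± 2.48 CPM in SIRMu-1 (SD, n = 5), 229 ± 12.7 CPM in rMC-1 (SD, n = 3) and 118 ± 7.39 CPM in Primary MC (SD, n = 4). Cars, a tRNA synthetase gene, averaged 142 ± 11.98 CPM in SIRMu-1, 312 ± 66.1 CPM in rMC-1 and 107 ± 10.3 CPM in Primary MC (SD, same n). Both were called higher in both lines than in Primary MC. Igf2, the paternally expressed growth factor, averaged 13.99 ± 18 CPM in SIRMu-1 (SD, n = 5) and 29.1 ± 23.1 CPM in Primary MC (SD, n = 4) and had 1 read over the rMC-1 libraries. H19, the maternally expressed RNA beside it, averaged 36.4 ± 44.2 CPM in SIRMu-1, 0.629 ± 0.401 CPM in rMC-1 and 2.16 ± 3.46 CPM in Primary MC (SD, same n), and rose in SIRMu-1 against Primary MC (4.09 ± 1.12, edgeR adjusted p = 0.0112). In SIRMu-1 the SD of both genes was above the mean. Cd81, a tetraspanin gene, fell in rMC-1 alone of the 2 lines (-2.02 ± 0.23 in rMC-1, edgeR adjusted p = 1.38e-05, and -0.27 ± 0.19 in SIRMu-1, edgeR adjusted p = 0.278), and SIRMu-1 was above rMC-1 (1.75 ± 0.23, edgeR adjusted p = 4.20e-05). Tssc4 passed in neither line. Over these 8 genes, 3 were higher and 2 lower in SIRMu-1, and 2 were higher and 4 lower in rMC-1, than in Primary MC. Among all genes, 21.7% were higher and 24.4% lower in SIRMu-1, and 31.9% and 38.9% in rMC-1.

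Within SIRMu-1 the members were set beside Mki67, a marker of cycling cells. Mki67 was at 226, 38.9, 173, 251 and 317 CPM in SIRMu-1 replicates 1 to 5. Replicate 2, of passage 11, had the lowest Mki67 and Cdkn2c and the highest Cdkn1a, Cdkn2a and Cdkn2b. Replicate 5, of passage 20, had the highest Mki67, Cdkn2c and Cdkn1b and the lowest Cdkn1a and Cdkn2b. From low to high, the 5 libraries took the same order in Cdkn2c as in Mki67, and the reverse order in Cdkn2b. In Cdkn1a the order was the reverse except that replicates 1 and 3 changed places. In Cdkn1b the order was that of Mki67 except that replicates 2 and 3 changed places. Cdkn1c and Cdkn2a took other orders, neither that of Mki67 nor its reverse. Cdkn2a was the steadiest in SIRMu-1, with its highest library 1.32 times its lowest, where Cdkn2b spanned 5.01 times. Replicates 2, 3 and 4 share passage 11, so these differences were not between passages alone. With 5 cultures of 1 line these orders are a description.

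Among Primary MC, replicate 4 had the lowest Mki67, at 7.45 CPM against 11.2 to 13.5 CPM in the other 3. It also had the lowest Cdkn2c and the highest Cdkn1a, Cdkn1c, Cdkn2a and Cdkn2b. Its Cdkn2a level was 163 CPM, against 32.1 to 43.5 CPM in the others. Among the other 3 Primary MC libraries, Cdkn1a and Mki67 took the same order from low to high (replicates 3, 1 and 2). In rMC-1 the 2 genes also took the same order (3, 1 and 2). Primary MC replicates 3 and 4 were both of passage 3. The 3 rMC-1 libraries were close to each other in every well counted member, and the highest was at most 1.33 times the lowest for Cdkn1a, Cdkn1b, Cdkn2a, Cdkn2b and Cdkn2c. The members were also compared with SIRMu-1 replicate 2 and Primary MC replicate 4 both left out, a choice made after their values were seen. Then 5, 6 and 4 of 6 members were called for SIRMu-1 against Primary MC, rMC-1 against Primary MC and SIRMu-1 against rMC-1. Among all genes, 2240 were called higher and 2533 lower for SIRMu-1 against Primary MC, and 3616 and 4220 for rMC-1 against Primary MC. For SIRMu-1 against rMC-1 they were 3597 and 3460, so calls were common there too. Against Primary MC, Cdkn2a in SIRMu-1 changed by -0.50 (edgeR adjusted p = 0.00657) and Cdkn2b by -2.003 (edgeR adjusted p = 0.000589).

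**Figure D3:**
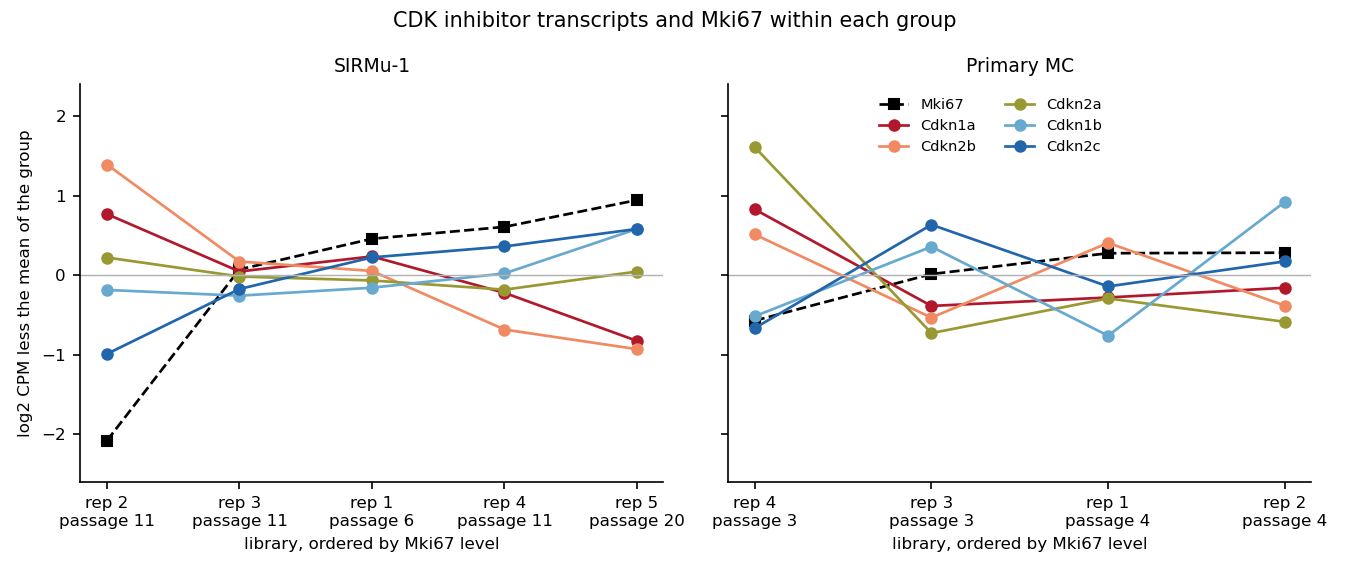
Log2 CPM of Mki67 and 5 CDK inhibitor genes in each library, less the mean of its group, for SIRMu-1 (left) and Primary MC (right); libraries are ordered by Mki67, and lines join the values of a gene. In SIRMu-1, Cdkn2c climbs with Mki67 and Cdkn2b descends, while Cdkn1a descends except for a rise from replicate 3 to replicate 1. In Primary MC, replicate 4 has the lowest Mki67 and the highest Cdkn1a, Cdkn2a and Cdkn2b.

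Gentamicin and amphotericin B were given to SIRMu-1 replicates 3 and 5 and not to replicates 1, 2 and 4. No member passed between these cultures, and 0% of 11636 tested genes did by edgeR, with 433 at an unadjusted p under 0.05 and 4 called by DESeq2. Cdkn2b differed most, by -0.79 ± 0.56 (edgeR adjusted p = 0.986, 95% interval -2.02 to 0.44), and Cdkn1a by -0.64 ± 0.41 (95% interval -1.55 to 0.27). For Cdkn2a the interval was -1.28 to 1.31. With 2 cultures against 3, of differing passage, changes inside those intervals cannot be seen.

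The kinases and cyclins that the inhibitors bind were measured beside them. Of 12 such genes, 8 were higher, 1 lower and 3 not called in SIRMu-1 against Primary MC (median log2 fold change 1.42, against -0.02 over all genes). In rMC-1, 8 were higher, 3 lower and 1 not called (median 2.47, against -0.15 over all genes). Cdk4, a target of the INK4 proteins, rose in both lines, by 1.02 ± 0.11 in SIRMu-1 (edgeR adjusted p = 3.24e-05) and 0.81 ± 0.12 in rMC-1 (edgeR adjusted p = 7.40e-05). Cdk6, the other INK4 target, rose in SIRMu-1 (1.53 ± 0.30, edgeR adjusted p = 0.00149) and did not pass in rMC-1 (0.10 ± 0.32, edgeR adjusted p = 0.801), and it was higher in SIRMu-1 than in rMC-1 (1.43 ± 0.33, edgeR adjusted p = 0.00234). Ccnd2, a D cyclin that opens the way for CDK4 and CDK6, averaged 32.0 ± 6.58 CPM in SIRMu-1 (SD, n = 5), 0.107 ± 0.00575 CPM in rMC-1 (SD, n = 3) and 286 ± 36.3 CPM in Primary MC (SD, n = 4). Ccna2, the A cyclin that drives DNA synthesis with CDK2, rose by 3.81 ± 0.49 in SIRMu-1 and 6.01 ± 0.56 in rMC-1. Rb1, the gene of the Rb protein that lies downstream of the INK4 inhibitors, did not pass in SIRMu-1 (-0.10 ± 0.28, edgeR adjusted p = 0.799) or rMC-1 (0.19 ± 0.32, edgeR adjusted p = 0.612). Its relative Rbl1, itself an E2F target, rose by 1.56 ± 0.33 in SIRMu-1 and 4.13 ± 0.39 in rMC-1. Rbl2, whose product p130 is abundant in resting cells, fell by 0.96 ± 0.18 on the log2 scale in SIRMu-1 and by 0.94 ± 0.21 in rMC-1. All 27 cell division genes were higher in each line than in Primary MC (median 3.30 in SIRMu-1 and 5.18 in rMC-1), and 26 of them were lower in SIRMu-1 than in rMC-1. That list and the list of kinases and cyclins share genes, Ccna2 among them, so their counts are not independent.

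**Figure D4:**
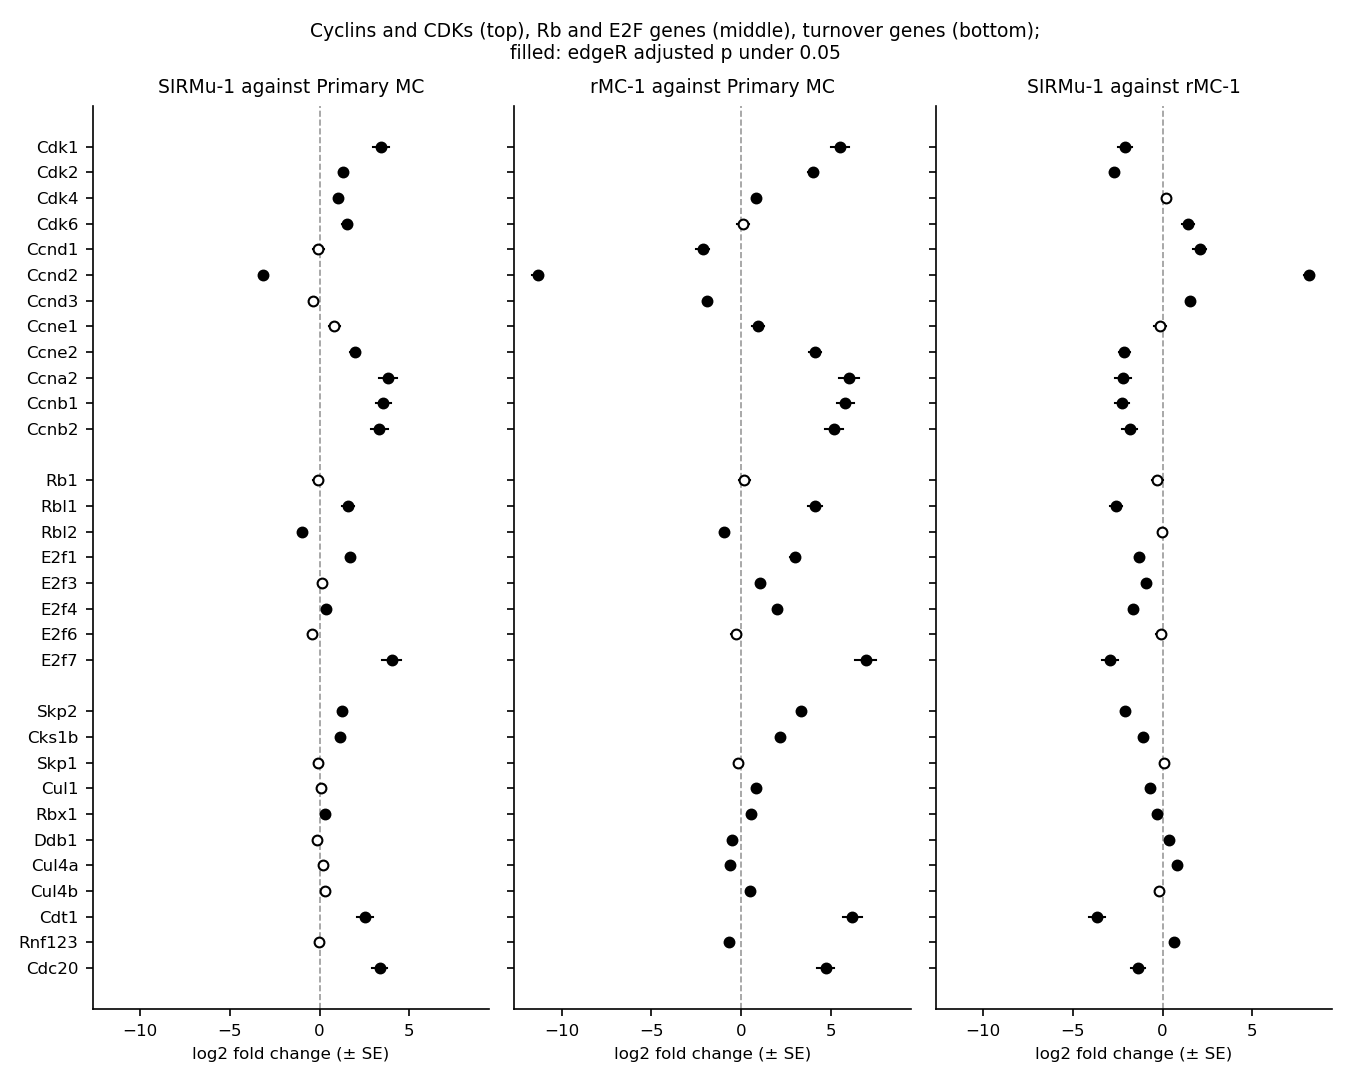
Log2 fold change ± SE of the cyclins and CDKs (top), the Rb and E2F genes (middle) and the ubiquitin ligase genes that turn the inhibitors over (bottom) in the 3 comparisons; filled points have an edgeR adjusted p under 0.05. Most called genes of the top block lie right of 0 in both lines against Primary MC, and Ccnd2 lies far left.

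Levels of p27 and p21 protein are set largely by ubiquitin ligases, and protein was not measured. Of 11 tested genes of the ligase list, 5 were higher and none lower in SIRMu-1 than in Primary MC. In rMC-1, 7 were higher and 3 lower. The medians were 0.27 in SIRMu-1 and 0.56 in rMC-1, against -0.02 and -0.15 over all genes. As a background for this list and those that follow, 21.7% of all genes were higher and 24.4% lower in SIRMu-1. In rMC-1 these shares were 31.9% and 38.9%. Skp2, the subunit that marks phosphorylated p27 for destruction, averaged 13.7 ± 2.43 CPM in SIRMu-1 (SD, n = 5), 58.4 ± 3.96 CPM in rMC-1 (SD, n = 3) and 5.66 ± 1.72 CPM in Primary MC (SD, n = 4). Its log2 fold changes from Primary MC were 1.27 ± 0.20 in SIRMu-1 (edgeR adjusted p = 0.000402) and 3.36 ± 0.23 in rMC-1 (edgeR adjusted p = 3.01e-07). The Cdkn1b transcript and the gene of its ligase were thus higher together in the lines. The list and its counts also held Cdt1, a replication licensing factor that is a substrate of these ligases and not a ligase gene. It rose by 2.55 ± 0.45 in SIRMu-1 and 6.20 ± 0.53 in rMC-1.

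Of 10 tested FOXO, KLF, MYC and Sp factors that act on Cip/Kip genes, 3 were higher and 2 lower in SIRMu-1, and 5 were higher and 3 lower in rMC-1, than in Primary MC (medians -0.17 in SIRMu-1 and 0.21 in rMC-1). Myc, which represses Cdkn1a, did not pass in SIRMu-1 (0.02 ± 0.25, edgeR adjusted p = 0.962) and rose in rMC-1 (2.34 ± 0.28, edgeR adjusted p = 1.91e-05). Klf2, a zinc finger factor gene, rose in SIRMu-1 (1.93 ± 0.32, edgeR adjusted p = 0.000606) and fell in rMC-1 (-1.99 ± 0.38, edgeR adjusted p = 0.000579). Foxo3, a forkhead factor that can induce Cdkn1b, fell in SIRMu-1 (-0.73 ± 0.25, edgeR adjusted p = 0.0297) and rose in rMC-1 (0.78 ± 0.28, edgeR adjusted p = 0.0255). Sp1, which binds GC boxes, rose in both lines, by 0.52 ± 0.19 in SIRMu-1 and 1.35 ± 0.21 in rMC-1.

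Polycomb proteins are known to silence the Cdkn2a and Cdkn2b locus. Of 20 tested repressor genes, 9 were higher and 5 lower in SIRMu-1, and 9 were higher and 2 lower in rMC-1, than in Primary MC, with medians of 0.25 in SIRMu-1 and 0.26 in rMC-1. Ezh2, the methyltransferase of Polycomb repressive complex 2, averaged 66.6 ± 21.98 CPM in SIRMu-1 (SD, n = 5), 274 ± 9.81 CPM in rMC-1 (SD, n = 3) and 10.7 ± 2.99 CPM in Primary MC (SD, n = 4). Bmi1, a Polycomb gene first linked to this locus in mice, rose by 0.26 ± 0.10 in SIRMu-1 (edgeR adjusted p = 0.0495) and did not pass in rMC-1 (-0.02 ± 0.11, edgeR adjusted p = 0.879). Among 12 tested activators, 3 were higher and 3 lower in SIRMu-1, and 4 were higher and 6 lower in rMC-1, with medians of 0.10 in SIRMu-1 and -0.43 in rMC-1. The TGF-beta genes of this list, whose pathway can induce Cdkn2b, did not move one way. The ligand gene Tgfb1 fell by 1.23 ± 0.29 on the log2 scale in SIRMu-1 and by 1.57 ± 0.34 in rMC-1, and the receptor gene Tgfbr2 by 0.77 ± 0.10 in SIRMu-1 and 1.74 ± 0.12 in rMC-1. The other receptor gene, Tgfbr1, did not pass in SIRMu-1 (0.12 ± 0.13, edgeR adjusted p = 0.494) and fell by 1.50 ± 0.16 in rMC-1. Of the signal carriers, Smad3 rose by 0.46 ± 0.15 in SIRMu-1 and 0.47 ± 0.17 in rMC-1 and Smad4 by 0.31 ± 0.10 in SIRMu-1 and 0.28 ± 0.12 in rMC-1, while Smad2 did not pass in SIRMu-1 (0.09 ± 0.08) and fell by 0.67 ± 0.09 in rMC-1.

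The genes most like each member over the 12 libraries were found by the root mean square difference between log2 CPM profiles, each less its own mean, where a smaller value is more alike. Nearest to Cdkn2c were Pbk (0.37), a mitotic kinase gene, Fbxo5 (0.39), an inhibitor of the anaphase ligase, and Nuf2 (0.39), a kinetochore gene, against a median of 1.87 over 7878 genes. Nearest to Cdkn1b were Smc4 (0.35), a condensin subunit, and the chromatin protein genes Dek (0.39) and Psip1 (0.40), with a median of 1.46. Cdkn1a was nearest to Pla2g16 (0.41), Cpe (0.42) and Cpt1c (0.53), genes of a phospholipase, a carboxypeptidase and a carnitine palmitoyltransferase relative, with a median of 2.04. Cdkn2a was nearest to the glucose transporter gene Slc2a1 (0.32), Frmd8 (0.35) and Ankrd13c (0.36), and Cdkn2b to Tbcel (0.43), Nceh1 (0.45) and Dcbld2 (0.45). The 12 libraries share their group differences, so likeness of profile cannot be told apart from likeness of group means, and it has no test. Cdkn1c had no gene nearer than Chst11 (0.54), and its counts were low.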

How the data were processed

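Per the labels, RNA was selected for polyA, made into stranded libraries and read on a NextSeq500. The submitters' processing notes name the build rn6 and, with no role for any of them, STAR 2.5.3a, cutadapt 1.8.1 and edgeR 3.18.1. The gene annotation and whether reads were counted by strand are not given in the sources used. The authors deposited whole-number read counts, not normalized, for 17315 genes in each of 12 libraries, and a log2 CPM table that was not used here. Reads in genes were 55.8% to 63.0% of a library. Rows that name no gene held the rest (24.2% to 30.3% outside genes and 9.47% to 12.3% with several mapping places, among others) and were left out.

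Tests of the counts used edgeR 4.0.16 under R 4.3.3: its expression filter on the 3 groups, TMM factors, and a quasi-likelihood fit of 3 group means over 12 libraries (9 residual degrees of freedom), adjusted by the Benjamini-Hochberg method over 11321 genes and called at an adjusted p under 0.05. The drug comparison used 4 groups (8 residual degrees of freedom). The procedure was checked on simulated counts in which a small share of genes changed, in both directions. In the data calls were common among all genes, so that check does not cover the scaling. Samples were grouped by their labels. The labels number replicates alike across groups without saying that a number marks a shared animal or day, so no block was used. The names of the count tables carry a code that some libraries of a group share, of unstated meaning; if they also share a culture or animal, the p-values are too small. Alternatives were other scalings and filters, DESeq2 1.42.0, only the 2 groups compared, a replicate block, those codes summed, SIRMu-1 split by drugs, and each library left out. No pair of libraries had near-identical counts.

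The members and lists were chosen with earlier results of these data known. All members were named. From each list, the genes named were up to 2 called genes with the largest rise and fall among those averaging at least 3 log2 CPM. Not every such gene was named. Also named were a fixed set (Mki67, Rb1, Skp2, Bmi1, Ezh2, Cdk4 and Cdk6) and the genomic neighbours. The D cyclins and the TGF-beta and Smad genes were named whatever their rank. One list and 2 genes of the fixed set are not reported here. Promoters are RefSeq's on GRCr8, matched by symbol for 6 of 7 members, and protein sequences were not used here. Reads without molecular identifiers are not independent molecules.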

Additional observations from a re-analysis of the deposited data

Results flagged for a closer look

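In 4 of the 12 checks of a member within SIRMu-1 or Primary MC, 1 library lay far from the others by Dixon's test. The test was run on CPM and not on log2 CPM. Its rate by chance of about 1 in 20 holds for normal values and independent checks. These checks share libraries, so no excess over chance can be read from them. Cdkn1a was at 1963 CPM in Primary MC replicate 4, against 845 to 991 CPM in the other 3. Cdkn2a was at 162.6 CPM in the same library, against 32.1 to 43.5 CPM in the others. Cdkn1b was at 115.2 CPM in SIRMu-1 replicate 5, which had the highest passage number, against 64.4 to 78.1 CPM in the other 4. Cdkn2b was at 262.7 CPM in SIRMu-1 replicate 2, against 52.5 to 113 CPM in the other 4. Mki67 was lowest in Primary MC replicate 4 (7.45 CPM) and SIRMu-1 replicate 2 (38.9 CPM) of their groups and highest in SIRMu-1 replicate 5 (317 CPM), and its part in these levels was not tested.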

How the results depend on the processing

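Over the alternatives run, 488 of 504 recomputed member changes kept their side of the threshold, 13 lost the call and 3 gained it. No called change turned its sign. In 18 cases a change that was not called turned its sign, 10 of them Cdkn2b in SIRMu-1 against rMC-1 (-0.50 to -0.001, against 0.03) and 8 in the drug comparison. Cdkn1a, Cdkn1b and Cdkn2b kept every call and every lack of one. With each library left out in turn, 5 to 6, 4 to 5, 4 to 4 and 0 to 0 of 6 members were called for SIRMu-1 against Primary MC, rMC-1 against Primary MC, SIRMu-1 against rMC-1 and the drugs, and 4572 to 5339, 7423 to 8201, 6249 to 7287 and 0 to 2 of all genes. Where that leaves 1 culture with drugs, it is assumed to vary like the other groups. DESeq2 called 4 genes for the drugs. With codes summed, 3173 genes were called for SIRMu-1 against Primary MC. For SIRMu-1 against rMC-1, 5733 genes and 2 members were called, and Cdkn2a (edgeR adjusted p = 0.0982) and Cdkn2c (0.101) were lost. Cdkn1c was lost in rMC-1 against Primary MC (-2.46, edgeR adjusted p = 0.0801). These fits have fewer samples, with 4 residual degrees of freedom. Scaling by library totals moved the median of all genes by 0.47 in rMC-1 against Primary MC and by -0.45 in SIRMu-1 against rMC-1, with 61.9% (45.1% under TMM) and 30.8% (51.7%) of called genes higher; Cdkn2b in SIRMu-1 against rMC-1, not called, was then -0.46, against 0.03 under TMM. With the replicate number as a block, 4 members were called in each of the 3 comparisons. Of all genes, 4973 were then called for SIRMu-1 against Primary MC, 8019 for rMC-1 against Primary MC and 7157 for SIRMu-1 against rMC-1. Against Primary MC, Cdkn2a in SIRMu-1 (-0.94, edgeR adjusted p = 0.0947) and Cdkn1c in rMC-1 (-1.80, 0.0964) were lost. The block changed no other member's call. The replicate numbers share no stated source: deviations of same-numbered libraries correlated by -0.063 to 0.098 over 10 pairs, and 4 of 11 libraries correlated best with their own number. Depth limits Cdkn1c, at 3 to 70 reads a library, and Cdkn2c in Primary MC, at 28 to 68.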
